A study of Rattus norvegicus with 8 samples.

Results

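The BCL2 family decides whether the outer mitochondrial membrane stays closed in a stressed cell. Here 10 of its genes were followed among the 31699 rows of the expression table, picked by their symbols and grouped by role. Bcl2, Bcl2l1 (BCL-XL) and Mcl1 encode pro-survival proteins, Bax and Bak1 encode the effectors that form pores in the membrane, and Bcl2l11 (BIM), Bid, Bad, Bbc3 (PUMA) and Pmaip1 (NOXA) encode BH3-only proteins. Each symbol had 1 row, and all 10 genes were expressed highly enough to be tested.

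Pro-survival members bind the effectors and the BH3-only proteins in a groove on their surface. BH3-only proteins are the stress sensors of the family: they occupy this groove or engage BAX and BAK directly, and the opened pores release cytochrome c, which assembles the apoptosome and activates caspases. Much of this control lies in protein binding, phosphorylation, cleavage and turnover, which RNA levels do not record.

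The samples were annulus fibrosus cells (AFCs), the fibrocartilage cells of the outer ring of the intervertebral disc, from Sprague Dawley rats. All cultures were exposed to cyclic mechanical stretch (CMS) at 20% elongation and 0.5 Hz for 36 h, a treatment used to induce apoptosis. The 4 samples labelled Lv-Ctrl had received the empty lentiviral vector pLVX-shRNA-Puro and the 4 labelled Lv-Piezo1 the vector pLVX-shRNA-Puro-Piezo1, meant to deplete the mechanosensitive ion channel PIEZO1, both at a multiplicity of infection of 20 for 24 h. Cells of 8 rats were pooled at each isolation and used at the third passage, no unstretched sample was analysed here, and the comparison therefore describes the vectors within stretched cells and not the stretch itself. Values are TPM, the level of a transcript corrected for its length and for the total of its sample, so levels of different genes can be set side by side.

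The RNA of the targeted gene went against its label. Piezo1 (ENSRNOG00000056786) was at 31.1, 33.0, 26.7 and 29.5 TPM in the Lv-Ctrl samples and at 38.1, 37.7, 40.2 and 41.4 TPM in the samples labelled Lv-Piezo1, a log2 fold change of 0.38 (SE 0.06, adjusted p = 8.6e-04, limma). The paper reports that the shRNA was verified, and that calpain activity and apoptosis were lower under Lv-Piezo1. By western blot it reports that Calpain1, Calpain2, Bax and cleaved Caspase3 protein rose with stretch and were lower under Lv-Piezo1. PIEZO1 protein is not measured in these data, and the reason for the higher Piezo1 RNA was not tested. Every direction below is therefore that of samples labelled Lv-Piezo1 against samples labelled Lv-Ctrl, not of a measured loss of Piezo1 RNA. The 8 libraries correlated within their groups at a mean r of 0.975 to 0.981, the lowest in Lv-Ctrl replicate 3, which was also the lowest of its group in 5 of the 10 members and the highest in 3. Fibrous matrix genes were abundant (Col1a1, 3282 and 5835 TPM on average), whereas Tnmd, a tendon and outer annulus marker, was listed at 0 in 7 of 8 samples. Of the 8 tested annulus markers 5 were higher and 2 lower, the latter being Fmod (68.4 and 34.0 TPM) and Mkx (25.4 and 14.6 TPM). Summed smooth muscle markers ranged from 310 to 321 TPM in Lv-Ctrl and from 4375 to 4553 TPM in Lv-Piezo1, with 7 of 7 higher, and summed macrophage markers from 21.8 to 23.6 and from 37.1 to 42.3 TPM, with Cd68 at 0.955 and 12.3 TPM on average and the defining markers Ptprc and Adgre1 at or near 0. Summed pericyte markers ranged from 520 to 561 TPM in Lv-Ctrl and from 276 to 293 TPM in Lv-Piezo1, with 3 of 5 tested higher and 2 lower, and summed nucleus pulposus markers from 5.78 to 6.68 and from 22.1 to 26.7 TPM, mostly Cd24 (3.79 and 21.9 TPM), with Tbxt, Shh and Noto at 0. These markers moved with every group difference below, and their part in the family's values was not tested. Among all tested genes 41.9% were higher and 16.3% lower at an adjusted p below 0.05, shares to set beside the marker counts.

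Of the 10 family members, 7 were higher in the samples labelled Lv-Piezo1, 1 was lower (Bad) and 2 did not pass an adjusted p of 0.05 (Bcl2 and Bcl2l11), whereas after median-ratio scaling of the libraries 3 were higher and 2 lower. After quantile normalization, the other scaling tried, 6 were higher and 2 lower. Bbc3 and Bid, both BH3-only genes, and the pro-survival gene Bcl2l1 were the 3 that were higher under each scaling tried. Among all 13103 tested genes 58.2% passed the same adjusted p, 41.9% higher and 16.3% lower, so a difference of either kind was common in this comparison. No member reached the study's fold threshold (a log2 fold change of 1 or more in either direction, limma), which 7.67% of tested genes passed (4.91% higher and 2.76% lower), although 9 of the 10 members had an unadjusted p below 0.05, as did 62.3% of tested genes. The groups did not overlap in TPM for 9 of the 10 members, against 54.2% of tested genes. The median log2 fold change was 0.29 over the 10 members and 0.14 over all tested genes, and 8 of the 10 members lay above the latter. In bulk RNA a lower level from fewer cells of a type cannot be told apart from less RNA per cell.

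**Figure D1:**
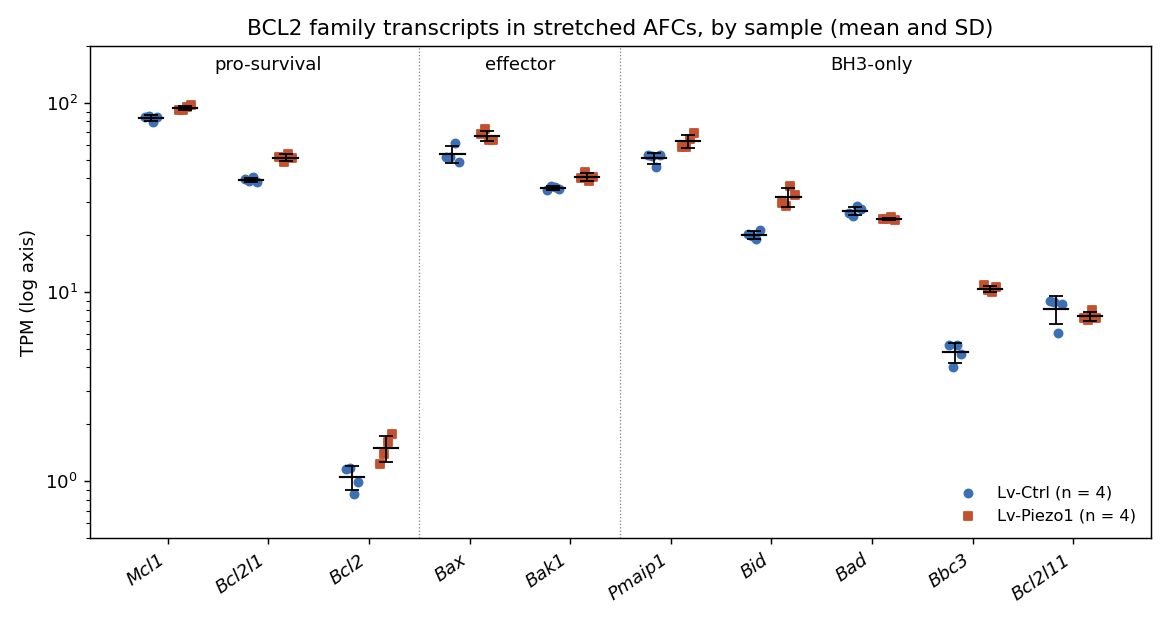
TPM, on a log axis, of each of the 10 family members in the 4 Lv-Ctrl and the 4 Lv-Piezo1 samples (points), with the group mean and SD. The groups separate for every member except Bcl2l11, and Bbc3 moves from 4.81 to 10.4 TPM on average.

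Among the pro-survival genes, Bcl2l1 showed the clearest rise. BCL-XL, its main protein, sits in the mitochondrial membrane and restrains BAX and BAK. Bcl2l1 (ENSRNOG00000007946) was at 39.5, 38.7, 40.6 and 38.0 TPM in Lv-Ctrl and at 51.8, 48.9, 53.8 and 51.0 TPM in Lv-Piezo1. The 4 Lv-Piezo1 samples all lay above the 4 Lv-Ctrl samples, and the mean went from 39.2 ± 1.11 to 51.4 ± 2.04 TPM (SD, 4 samples per group), with 0.38 as the log2 fold change (SE 0.04, adjusted p = 4.1e-05). Short BCL-XS transcripts come from the same gene with the opposite activity, and gene-level TPM does not separate the forms.

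Mcl1 (ENSRNOG00000063678), which encodes a short-lived pro-survival protein, was the most abundant member in both groups. Its TPM was 84.7, 85.0, 79.1 and 84.3 in Lv-Ctrl and 92.0, 92.0, 95.1 and 97.4 in Lv-Piezo1. All Lv-Piezo1 samples lay higher, by a log2 fold change of 0.17 (SE 0.04, adjusted p = 0.0026), close to the all-gene median of 0.14, and the value was -0.0024 after median-ratio scaling. After quantile normalization it was 0.11 (adjusted p = 0.015). Of the 3 pro-survival members, Mcl1 and Bcl2l1 held nearly all of the summed TPM, with Bcl2 scarce.

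Bcl2 (ENSRNOG00000067693), the founding member of the family, had the lowest level of the 10 genes. It was at 1.16, 1.18, 0.86 and 0.99 TPM in Lv-Ctrl and at 1.24, 1.39, 1.61 and 1.78 TPM in Lv-Piezo1. The groups did not overlap (exact two-sided permutation p = 0.029, the smallest that 4 against 4 allows), but the log2 fold change of 0.29 (95% interval 0.02 to 0.56) did not pass across all genes (adjusted p = 0.063, limma), although it did in 2 of 15 alternative analyses, without the filter on low values (adjusted p = 0.037) and with moderation without a trend (adjusted p = 0.017). Because 1 was added to each TPM before taking logs, this value understates the ratio of a gene at so low a level, and it was 0.48 with 0.1 added (adjusted p = 0.066).

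Both effectors were higher in the samples labelled Lv-Piezo1, and neither passed after median-ratio scaling. After quantile normalization, the other scaling tried, Bax passed and Bak1 did not. Their log2 fold changes were smaller than that of the pro-survival gene Bcl2l1, a difference that was not tested. BAX moves from the cytosol to mitochondria on activation, while BAK resides there. Bax (ENSRNOG00000020876) was at 51.8, 51.8, 61.6 and 48.8 TPM in Lv-Ctrl and at 68.2, 72.5, 63.6 and 63.3 TPM in Lv-Piezo1. Lv-Ctrl replicate 3 lay just under the lowest Lv-Piezo1 sample, and the other 3 Lv-Ctrl samples lay well below. Its log2 fold change was 0.32 (SE 0.07, adjusted p = 0.0052), and 0.14 after median-ratio scaling (adjusted p = 0.24). After quantile normalization it was 0.23 (adjusted p = 0.034). The paper reports from western blots that Bax protein was lower under Lv-Piezo1, the opposite direction to Bax RNA here. Protein was not measured in these data, and the reason was not tested. Bak1 (ENSRNOG00000000485) was at 34.8, 36.4, 36.1 and 35.1 TPM in Lv-Ctrl and at 40.1, 43.3, 38.7 and 40.4 TPM in Lv-Piezo1. The groups did not overlap, the log2 fold change was 0.18 (SE 0.04, adjusted p = 0.0044), and after median-ratio scaling it was 0.01 (adjusted p = 0.89).

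The BH3-only genes did not move as a group: Bbc3, Bid and Pmaip1 were higher, Bad was lower and Bcl2l11 did not pass, and after median-ratio scaling Pmaip1 no longer passed while Bcl2l11 was lower. Bbc3 encodes PUMA, a stress sensor that binds all the main pro-survival proteins. Bbc3 (ENSRNOG00000062473) was at 5.28, 4.03, 5.22 and 4.72 TPM in Lv-Ctrl and at 10.9, 10.2, 10.0 and 10.6 TPM in Lv-Piezo1. Every Lv-Piezo1 sample stood far above every Lv-Ctrl sample, and the mean rose from 4.81 ± 0.579 to 10.4 ± 0.386 TPM, a ratio of 2.17. Its log2 fold change of 0.98 (SE 0.08, 95% interval 0.80 to 1.16, adjusted p = 7.7e-06) was above that of 94.3% of tested genes and just under the study's threshold of 1. With 0.1 added to TPM in place of 1, it was 1.11 and past that threshold, as it was without Lv-Ctrl replicate 3 (1.02).

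Bid encodes a BH3-only protein that caspase-8 cleaves to a short active form, linking death receptors to mitochondria. Bid (ENSRNOG00000012439) was at 20.2, 19.7, 19.1 and 21.4 TPM in Lv-Ctrl and at 29.6, 28.5, 36.4 and 32.7 TPM in Lv-Piezo1. The groups were far apart, with a log2 fold change of 0.63 (SE 0.08, adjusted p = 1.0e-04) that was above that of 87.3% of tested genes. Pmaip1 (ENSRNOG00000018770), whose product NOXA binds mainly MCL1, was the most abundant BH3-only transcript. It was at 53.04, 52.52, 45.86 and 53.01 TPM in Lv-Ctrl and at 58.4, 58.7, 64.6 and 68.9 TPM in Lv-Piezo1. The groups did not overlap and the log2 fold change was 0.29 (SE 0.07, adjusted p = 0.0055), against 0.11 after median-ratio scaling (adjusted p = 0.087). After quantile normalization it was 0.19 (adjusted p = 0.029).

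Bad encodes a BH3-only protein that survival kinases phosphorylate and that is then held in the cytosol. Bad (ENSRNOG00000021147) was at 26.2, 25.3, 28.4 and 27.6 TPM in Lv-Ctrl and at 24.3, 24.4, 24.8 and 24.1 TPM in Lv-Piezo1. The Lv-Piezo1 samples were tightly grouped below all Lv-Ctrl samples, and the log2 fold change was -0.13 (SE 0.04, adjusted p = 0.029). This was the only member called lower, and the call was lost in 6 of 16 alternative analyses, among them without Lv-Ctrl replicate 3 (-0.11, adjusted p = 0.051) and without Lv-Ctrl replicate 4 (adjusted p = 0.077).

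Bcl2l11 encodes BIM, a potent activator of BAX and BAK that FOXO factors induce. Bcl2l11 (ENSRNOG00000016551) was at 8.94, 8.84, 6.06 and 8.68 TPM in Lv-Ctrl and at 7.30, 7.14, 8.05 and 7.30 TPM in Lv-Piezo1. It was the only member whose groups overlapped: Lv-Ctrl replicate 3 was below all Lv-Piezo1 samples and the other 3 Lv-Ctrl samples were above them. Its log2 fold change was -0.10 (95% interval -0.35 to 0.15, adjusted p = 0.47), and without Lv-Ctrl replicate 3 it was -0.22 (adjusted p = 0.010).

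Bad and Bcl2l11 were the only members with a window that held the FOXO letters GTAAACA. The windows are the 250 bases before the start in RefSeq (rat build GRCr8, used here for sequence only). Windows were found for 8 of the 10 members, not for Bax and Bbc3, in 11 windows in all. GTAAACA, read on both strands, occurs in 3.21% of all 33469 windows of this length. The windows of Bcl2l11 (chr3:135819792-135820041, plus strand) and Bad (chr1:213562864-213563113, plus strand) are shown with the match in capitals, beside that of Bid (chr4:155808320-155808569, minus strand), which has none. Each is written 5′ to 3′ on the strand of its gene and ends at the base before the start.
Bcl2l11: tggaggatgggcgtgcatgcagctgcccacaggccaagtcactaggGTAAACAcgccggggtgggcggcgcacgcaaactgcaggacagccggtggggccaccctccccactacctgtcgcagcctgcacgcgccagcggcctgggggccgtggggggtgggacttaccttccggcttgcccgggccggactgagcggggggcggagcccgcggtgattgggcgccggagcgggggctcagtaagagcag
Bad: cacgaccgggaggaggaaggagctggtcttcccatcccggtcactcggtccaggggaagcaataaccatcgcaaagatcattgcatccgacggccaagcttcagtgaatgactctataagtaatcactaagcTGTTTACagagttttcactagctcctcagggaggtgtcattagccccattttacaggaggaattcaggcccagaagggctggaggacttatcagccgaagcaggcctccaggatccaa
Bid: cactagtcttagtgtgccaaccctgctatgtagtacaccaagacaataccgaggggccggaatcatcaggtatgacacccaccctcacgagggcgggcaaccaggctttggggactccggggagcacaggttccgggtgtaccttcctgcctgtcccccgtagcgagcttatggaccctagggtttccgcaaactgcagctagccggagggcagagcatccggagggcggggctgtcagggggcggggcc
The match in Bcl2l11 lies at bases 204 to 198 before the start, and that in Bad lies at bases 118 to 112 and reads GTAAACA on the other strand. Of the other letters searched on both strands, TTCNNNGAA (a STAT site, 7.67% of all windows) was in 3 member windows, 1 of Bad and 2 overlapping windows of Bcl2l1. TGCAAT (the core bound by CHOP and C/EBP proteins, 7.22%) was in the window of Bad. TGANTCA (AP-1, 6.34%), CACGTG (a MYC E-box, 5.59%) and RRRCWWGYYY (a p53 half-site, 6.64%) were in none of the 11. A match describes letters and not a bound site, and a link between a match and a change in RNA was not tested.

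**Figure D2:**
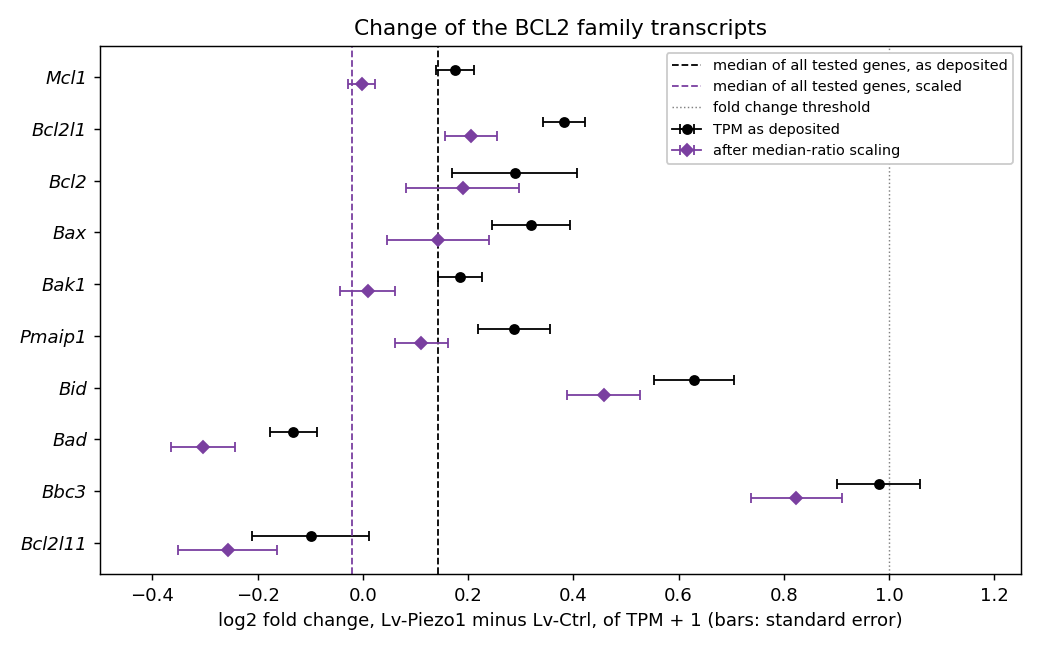
Log2 fold change of TPM + 1 (Lv-Piezo1 minus Lv-Ctrl) of the 10 members with its SE, as deposited (circles) and after median-ratio scaling (diamonds), with the median of all tested genes under each as dashed lines at 0.14 and -0.02. Bbc3, Bid and Bcl2l1 lie to the right of both medians and Bad and Bcl2l11 to the left, while Mcl1 and Bak1 sit close to the median and Mcl1 changes sign.

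Relative to the all-gene median, the members spread from 0.84 (Bbc3) and 0.49 (Bid) through 0.24 (Bcl2l1), 0.18 (Bax), 0.15 (Bcl2) and 0.15 (Pmaip1) to 0.04 (Bak1), 0.03 (Mcl1), -0.24 (Bcl2l11) and -0.27 (Bad) on the log2 scale. Both signs thus occur within the BH3-only class, which held the most extreme members at either end.

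The order of the levels was almost the same in both groups. By mean TPM, Mcl1 led in both, followed by Bax and Pmaip1, whose ranges overlapped, then Bcl2l1 and Bak1, with Bcl2 last. Bid and Bad exchanged places, with Bad above Bid in Lv-Ctrl and below it in Lv-Piezo1, and so did Bcl2l11 and Bbc3. All neighbours in the order other than Bax and Pmaip1 had ranges that did not overlap.

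Summed over all 10 members, TPM was 324 ± 1.36 in Lv-Ctrl and 391 ± 6.89 in Lv-Piezo1 (SD, n = 4 each), with ranges of 323 to 326 and of 384 to 397. As deposited, the sums of all 3 roles were higher in Lv-Piezo1, from 124 ± 2.17 to 147 ± 4.01 TPM for the pro-survival genes, from 89.1 ± 6.002 to 107 ± 6.06 TPM for the effectors, and from 111 ± 4.72 to 137 ± 8.16 TPM for the BH3-only genes. As shares of the family total, the pro-survival genes held 38.2% ± 0.577 and 37.6% ± 0.537, the effectors 27.5% ± 1.89 and 27.5% ± 1.94, and the BH3-only genes 34.3% ± 1.43 and 34.9% ± 1.502. The 2 groups overlapped in each of these shares.

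The ratio of Bax to Bcl2 RNA, a common index of apoptotic balance, was 44.7, 43.9, 71.7 and 49.3 in Lv-Ctrl and 55.0, 52.1, 39.5 and 35.6 in Lv-Piezo1. The groups overlapped widely around means of 52.4 ± 13.1 and 45.5 ± 9.45, and without Lv-Ctrl replicate 3 the Lv-Ctrl mean was 46.0. After quantile normalization the means were 46.4 in Lv-Ctrl and 50.5 in Lv-Piezo1, the opposite order. Bcl2, the denominator, was at about 1 TPM. Against the abundant pro-survival genes, Bax stood at 1.36 and 1.31 times Bcl2l1 and at 0.645 and 0.712 times Mcl1 on average, also with overlap. The ratio of Pmaip1 to Mcl1 was 0.613 ± 0.0229 in Lv-Ctrl and 0.665 ± 0.035 in Lv-Piezo1, without overlap. Within the BH3-only genes, Bbc3 was 0.240 ± 0.0326 of Bid in Lv-Ctrl and 0.331 ± 0.0418 in Lv-Piezo1.

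**Figure D3:**
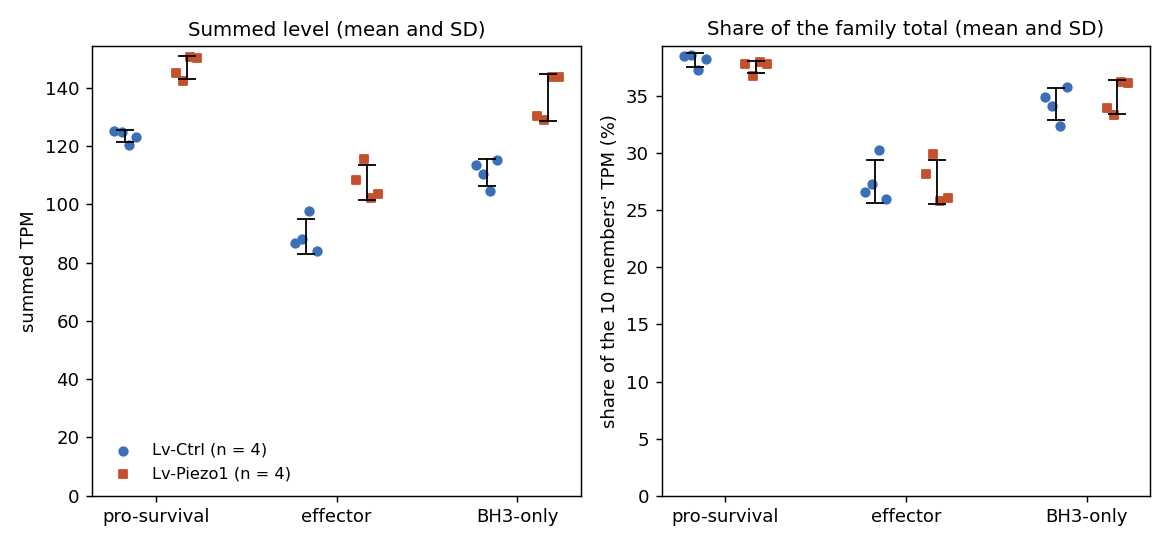
Summed TPM of the pro-survival, effector and BH3-only genes (left) and each role's share of the TPM of the 10 members in percent (right), in each Lv-Ctrl (circles) and Lv-Piezo1 (squares) sample, with bars that span the mean ± SD. The sums lie higher in Lv-Piezo1 in all 3 roles as deposited, while the shares of the groups overlap in each.

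Among the other tested members of the wider family, only Bok gave a larger log2 fold change of TPM + 1 than any of the 10. With 0.1 added to TPM in place of 1, Bcl2l14 did so too (1.39, against 1.11 for Bbc3). Bok, an effector-like relative of BAX and BAK that can act without them, was at 4.33, 4.37, 6.88 and 5.54 TPM in Lv-Ctrl and at 22.2, 22.4, 22.9 and 20.6 TPM in Lv-Piezo1. The groups were far apart, with a log2 fold change of 1.89 (SE 0.12, adjusted p = 1.7e-06), past the study's threshold. Of the other 3 multi-domain genes, Bcl2l2 (BCL-W) did not pass (44.4 ± 5.64 and 40.8 ± 6.21 TPM, log2 fold change -0.12, adjusted p = 0.41) except after median-ratio scaling, where it was lower (-0.30, adjusted p = 0.035), and Bcl2a1 and Bcl2l10 were too low to be tested.

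Of 9 other BH3-only and BH3-like genes 8 had a row, and Hrk was not analysed here. Of the 6 tested, 4 were higher and 2 lower, beside 41.9% higher and 16.3% lower of all tested genes. Bmf, a BH3-only gene tied to the cytoskeleton and cell detachment, fell from 11.8 ± 1.10 to 7.59 ± 0.337 TPM (log2 fold change -0.57, adjusted p = 1.3e-04). Bcl2l14 rose from 0.828 ± 0.045 to 2.34 ± 0.224 TPM (0.87, adjusted p = 7.4e-05), Bcl2l12 from 28.0 ± 1.78 to 41.1 ± 5.14 TPM (0.53, adjusted p = 7.3e-04) and Bcl2l13 from 19.8 ± 1.76 to 25.5 ± 0.921 TPM (0.36, adjusted p = 0.0012). Of the mitophagy receptors, Bnip3 fell from 248 ± 8.77 to 217 ± 11.3 TPM (-0.19, adjusted p = 0.0043) and Bnip3l rose from 80.2 ± 2.52 to 94.3 ± 1.203 TPM (0.23, adjusted p = 2.5e-04), a call lost after median-ratio scaling (0.05, adjusted p = 0.20). Bik was too low to be tested but did not overlap, at 0.20 to 0.46 TPM in Lv-Ctrl and 0.84 to 1.86 TPM in Lv-Piezo1 (exact two-sided permutation p = 0.029), and Bcl2l15 was listed at 0 in all 8 samples.

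**Figure D4:**
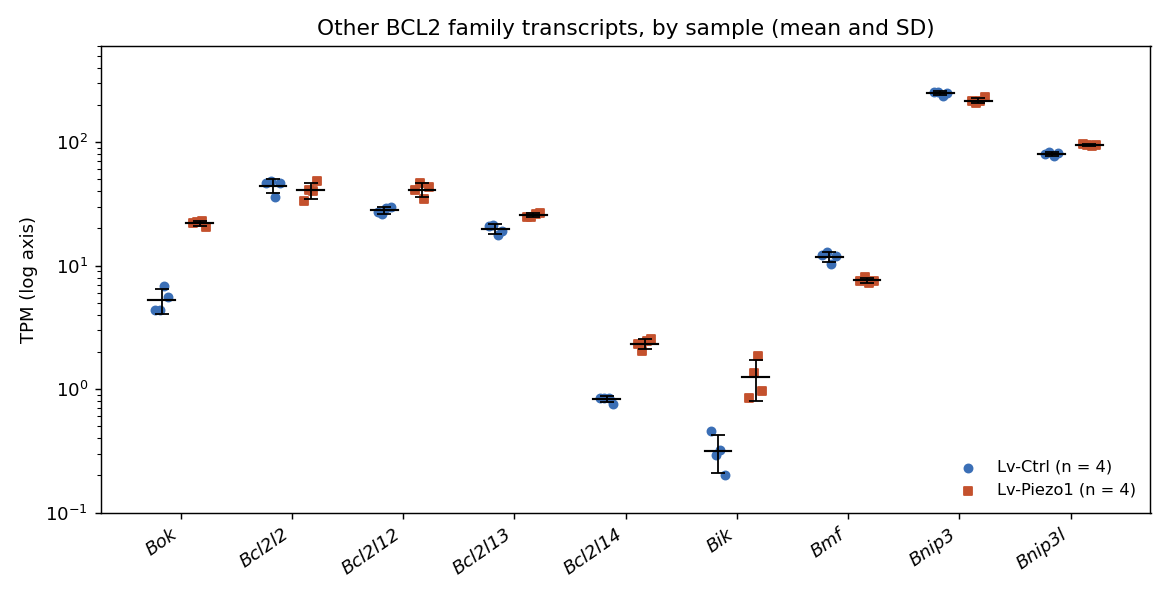
TPM, on a log axis, of 9 other BCL2 family genes in each Lv-Ctrl and Lv-Piezo1 sample, with group mean and SD. Bok moves from about 5 to about 22 TPM, while Bmf moves down and Bcl2l2 overlaps.

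The partners and regulators of the 10 members were mixed. Over 8 lists written from general knowledge, 63 of 67 genes were tested, of which 26 were higher (41.3%), 11 lower (17.5%) and 26 did not pass, shares close to the 41.9% and 16.3% of all tested genes, and none passed the study's threshold. The counts of single lists are therefore descriptions, and the named genes are examples. Among mitochondrial and endoplasmic reticulum partners (5 of 13 higher, 3 lower), Itpr1, a calcium release channel that BCL2 binds, rose from 8.35 ± 1.36 to 17.2 ± 1.51 TPM (0.97, adjusted p = 7.4e-05), and Bag1, a co-chaperone that binds BCL2, fell from 177 ± 17.9 to 117 ± 7.45 TPM (-0.58, adjusted p = 1.6e-04). Of the 6 tested YWHA genes, whose proteins hold phosphorylated BAD in the cytosol, 3 were higher, with Ywhah rising from 144 ± 2.81 to 194 ± 3.21 TPM (0.43, adjusted p = 2.0e-06). Of 15 kinases and phosphatases that act on BAD, BIM and MCL1, 8 were higher and 1 was lower, together near the 58.2% of all tested genes called. Rps6ka1, a kinase that phosphorylates BAD, rose from 4.75 ± 0.211 to 10.4 ± 0.371 TPM (0.99, adjusted p = 7.1e-07), and Ppp3ca, the calcineurin subunit that can dephosphorylate BAD, fell from 27.3 ± 2.70 to 17.5 ± 0.866 TPM (-0.61, adjusted p = 8.8e-05).

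Of the 6 tested genes of MCL1 and NOXA turnover, 2 were higher and 1 lower. Trim17, a ubiquitin ligase of MCL1, went from 1.57 ± 0.978 to 3.24 ± 0.986 TPM with overlap between the groups (0.76, adjusted p = 0.040, a call lost in 10 of 15 alternative analyses, both scalings among them), and Usp13, which removes ubiquitin from MCL1, fell from 5.53 ± 0.489 to 3.48 ± 0.319 TPM (-0.54, adjusted p = 4.4e-04). Of 8 tested transcription factors that act on family genes, 4 were higher and 3 lower. Myc rose from 12.5 ± 1.33 to 21.4 ± 0.637 TPM (0.74, adjusted p = 2.4e-05) and Jun fell from 95.8 ± 5.32 to 58.6 ± 3.05 TPM (-0.70, adjusted p = 4.4e-06). Chosen after their values were seen, Ddit3 (CHOP) rose from 111 ± 12.6 to 163 ± 6.53 TPM (0.55, adjusted p = 1.6e-04) and Foxo1, an activator of Bcl2l11, went from 8.46 ± 1.97 to 5.44 ± 0.764 TPM with overlap (-0.54, adjusted p = 0.015). Foxo3, the other FOXO gene of the list and also chosen after its value was seen, did not pass (6.12 ± 1.63 and 6.22 ± 1.01 TPM, 0.04, adjusted p = 0.86).

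Downstream of the pores, 1 of 5 genes for released proteins was higher and 1 lower. Htra2, a protease that antagonizes inhibitors of apoptosis, rose from 46.2 ± 2.77 to 55.4 ± 3.46 TPM (0.26, adjusted p = 0.0042, but 0.08 and adjusted p = 0.37 after median-ratio scaling and 0.15 and adjusted p = 0.073 after quantile normalization), and Diablo (SMAC), with a like role, fell from 69.1 ± 3.92 to 61.2 ± 2.31 TPM (-0.17, adjusted p = 0.013). In the apoptosome list 2 of 7 were higher and 2 lower. Apaf1, the scaffold, rose from 3.135 ± 0.768 to 5.11 ± 0.669 TPM (0.58, adjusted p = 0.0070). Casp9, the caspase it activates, rose from 8.90 ± 0.662 to 11.3 ± 0.540 TPM (0.31, adjusted p = 0.0024). Xiap, an inhibitor of caspases, fell from 1.85 ± 0.489 to 1.01 ± 0.124 TPM (-0.49, adjusted p = 0.016). This level is near the filter of 1 TPM, and the change was -0.79 with 0.1 added to TPM. Of the calpains, the calcium-activated proteases of the study, Capn2 was called at an adjusted p of 0.0495 with overlapping groups (94.5 ± 7.16 and 105 ± 5.37 TPM, 0.16, and -0.02 after median-ratio scaling, with the call lost in 12 of 16 alternative analyses), and Capn1 (0.07, adjusted p = 0.67) and Capns1 (0.08, adjusted p = 0.11) did not pass. By western blot, the paper reports less Calpain1 and Calpain2 protein under Lv-Piezo1.

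The genes whose profile over the 8 samples was most like that of Bbc3, by root mean square difference of centred log2(TPM + 1) among 9060 genes, were Arvcf (0.064), Ankrd13d (0.067) and Ppm1j (0.068). They differed between the groups by log2 fold changes of 1.03, 1.07 and 1.01.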

How the data were processed

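RNA-seq of 8 AFC samples was used, 4 per group. Per the labels, libraries came from total RNA with a SMARTer mRNA kit; the study's methods name Trizol for extraction and the labels an RNeasy kit. The deposited table holds TPM (transcript levels scaled to a fixed total), which the authors rounded to 2 decimals, and they sum to the same total in every sample. The study's methods name HISAT2, StringTie and FPKM, and the submitters' processing notes name mm10, a mouse build, and DESeq2, while 30560 rows carry rat Ensembl identifiers. TPM keeps no depth, so depth is unknown, no counting interval is given, and precision rests on the 4 samples of a group. Nothing beyond the study's wording says that samples of a group came from separate animals, so p-values measure the spread between these samples. The paper describes 4 in vitro repeats whose cells received either vector under stretch, so the samples may be paired. The labels give only a number per group, and the main fit does not use a pairing. The 2 columns of the authors' group means were not used.

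Groups and replicates came from the sample labels. On log2(TPM + 1), limma 3.58.1 (R 4.3.3; trended empirical Bayes moderation, adjustment by Benjamini-Hochberg) compared the groups without a block over 13103 genes averaging 1 TPM or more. The call is an adjusted p below 0.05; the study's threshold adds a log2 fold change of 1 or more in either direction. Log2 fold changes of TPM + 1 understate changes of low genes. Single genes were also compared by an exact two-sided permutation test over 70 relabelings. The code was tested on simulated data. Named genes are the members, the other family genes, genes fixed by name (Piezo1, the calpains, Apaf1 and Casp9), and the largest rise and fall in each list; others are marked. Some genes named by this rule are not reported here. The members and lists were chosen with earlier results of these data known. Alternatives were another pseudocount, filters, 2 scalings, leaving out mitochondrial genes, a fit without a trend, a replicate block and leaving out each sample. Promoter windows and gene overlaps came from RefSeq (GRCr8). There Bcl2 and Bak1 overlap long noncoding RNAs, Bcl2l1 a pseudogene, Bcl2l11 the gene Acoxl (0.0625 and 0.075 TPM) and Bcl2l12 the gene Irf3 (159 and 173 TPM). Whether counting used strand is not given in the sources used here, so these values are uncertain.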

Additional observations from a re-analysis of the deposited data

Results flagged for a closer look

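In 41 genes named above, each group of 4 samples was examined for a sample far from the other 3 by Dixon's criterion, and 11 of 82 groups held one. A rate of about 1 in 20 by chance assumes independent and normally distributed values. These groups share the same 8 libraries, so 11 of 82 cannot be read as an excess. Of the 11, 4 were in Lv-Ctrl replicate 3, where the members Mcl1 (79.13 TPM, others 84.28 to 85.03), Bcl2l11 (6.06 TPM, others 8.68 to 8.94) and Pmaip1 (45.86 TPM, others 52.52 to 53.04) were low and Ddit3 (130.29 TPM, others 104.25 to 105.69) was high. Bcl2l14 was low in Lv-Ctrl replicate 4 (0.76 TPM), where the others were all 0.85 TPM at the 2 decimals given. Htra2 (42.02 TPM, others 47.31 to 47.73) and Ppm1j (8.94 TPM, others 9.90 to 9.98) were low in Lv-Ctrl replicate 2. Usp13 (3.95 TPM, others 3.28 to 3.39) and Foxo1 (6.58 TPM, others 4.97 to 5.10) were high in Lv-Piezo1 replicate 4. Casp9 was low in Lv-Piezo1 replicate 2 (10.47 TPM, others 11.49 to 11.63), and Arvcf was low in Lv-Piezo1 replicate 3 (10.53 TPM, others 11.42 to 11.48).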

How the results depend on the processing

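Bbc3, Bid and Bcl2l1 were higher at an adjusted p below 0.05 in 16 of 16 alternatives, with log2 fold changes of 0.78 to 1.11, 0.46 to 0.68 and 0.21 to 0.40. Median-ratio scaling moved the all-gene median from 0.14 to -0.02. It left 3 members higher and 2 lower (Bad -0.30, adjusted p = 0.0026; Bcl2l11 -0.26, adjusted p = 0.043), and 3490 genes higher and 3824 lower in place of 5489 and 2137. It turned Mcl1 to -0.0024, Capn2 to -0.021, and Capn1 and Capns1 to -0.10. Quantile normalization left 6 members higher and 2 lower (Bcl2l11 -0.30, adjusted p = 0.017), 3579 genes lower, and Capn1 at -0.092. Of genes past the study's threshold 64.1% were higher as deposited, 51.0% with median-ratio scaling and 48.8% with quantile normalization. With 0.1 added to TPM, 1 member passed that threshold (Bbc3), and at a mean TPM of at least 5, 372 genes did so upward in place of 644. Capn1 was at -0.057 without Lv-Ctrl replicate 3, the lowest of -0.057 to 0.16 over all leave-one-out fits. Leaving out each sample gave 7 members higher, 0 to 1 past the study's threshold (Bbc3, without Lv-Ctrl replicate 1 or 3) and 0 to 1 lower, Bad losing its call without Lv-Ctrl replicate 4 or Lv-Piezo1 replicate 1, 2 or 4, while without Lv-Ctrl replicate 3 the member called lower was Bcl2l11. Same-numbered samples did not deviate together (correlations -0.058 to -0.012, and 0 of 8 samples correlated best with their own number). This cannot show that the samples are unpaired, because samples of the same repeat may carry different numbers in each group. With the replicate block, which pairs by number, 7 members were higher and 0 lower, and 6971 genes passed in place of 7626. The causes were not tested.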
